A study of Mus musculus with 10 samples.

Results

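The genes described here are 8 genes for RNA polymerase I and the nucleolus, most of them tied to Treacher Collins syndrome or to related facial disorders. They are Tcof1, Polr1a, Polr1b, Polr1c, Polr1d, Ubtf, Ncl and Fbl. They were chosen by name from the 35542 genes of the count table, with earlier results of these data known. Expression was measured by RNA sequencing in the frontonasal prominence (FNP), the bulge of facial tissue above the mouth that forms the forehead and the nose, dissected from FVB/NJ mouse embryos at E10.5, in mid-gestation. There were 6 wild-type (WT) libraries with 2 intact copies of Smchd1, of which 3 were labelled male and 3 female. There were 4 libraries from embryos homozygous for MommeD1 (MD1), a loss-of-function allele of this chromatin protein, of which 2 were labelled male and 2 female. No group received a treatment, the allele is constitutive, and no source says how embryos were pooled, which means that the p-values cover the spread among libraries, possibly technical.

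RNA polymerase I transcribes the ribosomal RNA genes in the nucleolus, and each cell division needs a new supply of ribosomes. Treacle, the product of Tcof1, and the polymerase subunits are loaded at these genes together with the factor UBF, and the primary transcript is then modified and cut by nucleolar proteins. Cranial neural crest cells, which migrate into the face and build most of its skeleton, are known to be sensitive to loss of this machinery, and mutations in TCOF1, POLR1B, POLR1C or POLR1D cause Treacher Collins syndrome in people. Mutations in POLR1A cause a related acrofacial dysostosis.

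The libraries held between 4195119 and 24125084 counts, and the shallowest was MD1 male replicate 3. Smchd1 itself was at 246 ± 14.0 CPM in WT (counts per 1000000 of the TMM-scaled library, mean ± SD, n = 6) and at 78.6 ± 20.8 CPM in MD1 (n = 4), a log2 fold change of -1.65 with an adjusted p of 0.000746 (edgeR's quasi-likelihood test). Of the MD1 libraries, 2 stood apart from the rest. MD1 female replicate 4 was far from the others on the first principal component (37.3% of the variance) and MD1 male replicate 3 on the second (23.8%). The library labelled MD1 female replicate 1 had Y-linked genes at 290.1 CPM, where the WT males ranged from 257 to 286 CPM and each WT female was at 0. Its Xist level was 204 CPM, against 0.596 to 2.08 CPM in the WT males and 2594 to 2695 CPM in the WT females, so it held signals of both sexes. MD1 female replicate 4 had Y-linked genes at 0 CPM and Xist at 6724 CPM. It was the only MD1 library without Y-linked signal, so leaving it out also leaves out the only clear MD1 female. Each of the 8 genes is therefore also given without MD1 female replicate 4, and ranges with any library left out are given at the end.

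For none of the 8 genes was a difference between the genotypes detected beyond the spread between libraries. All 8 passed the filter on low counts, and 0 of 8 passed an adjusted p of 0.05 with edgeR, where 0.0777% of the 15452 autosomal genes tested did. DESeq2, limma-voom and limma on the deposited log2 RPKM values also called 0 of 8. At an unadjusted p under 0.05 edgeR again had 0 of 8, against 9.79% of all genes. The libraries of WT and MD1 overlapped in all 8 genes, and the share of all genes with no overlap was 2.05%. In the fit, 5 of the 8 were lower and 3 higher in MD1, against 49.5% lower among all genes, with a median log2 fold change of -0.028 beside 0.0029 for all genes. The 95% intervals of the 8 genes, each for 1 gene alone, lay between 0.721-fold (Fbl) and 1.21-fold (Polr1a) of WT. Changes within these limits were not excluded. In whole tissue, fewer cells of a type and less RNA per cell cannot be told apart, so these values describe the FNP as a mixture.

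**Figure D1:**
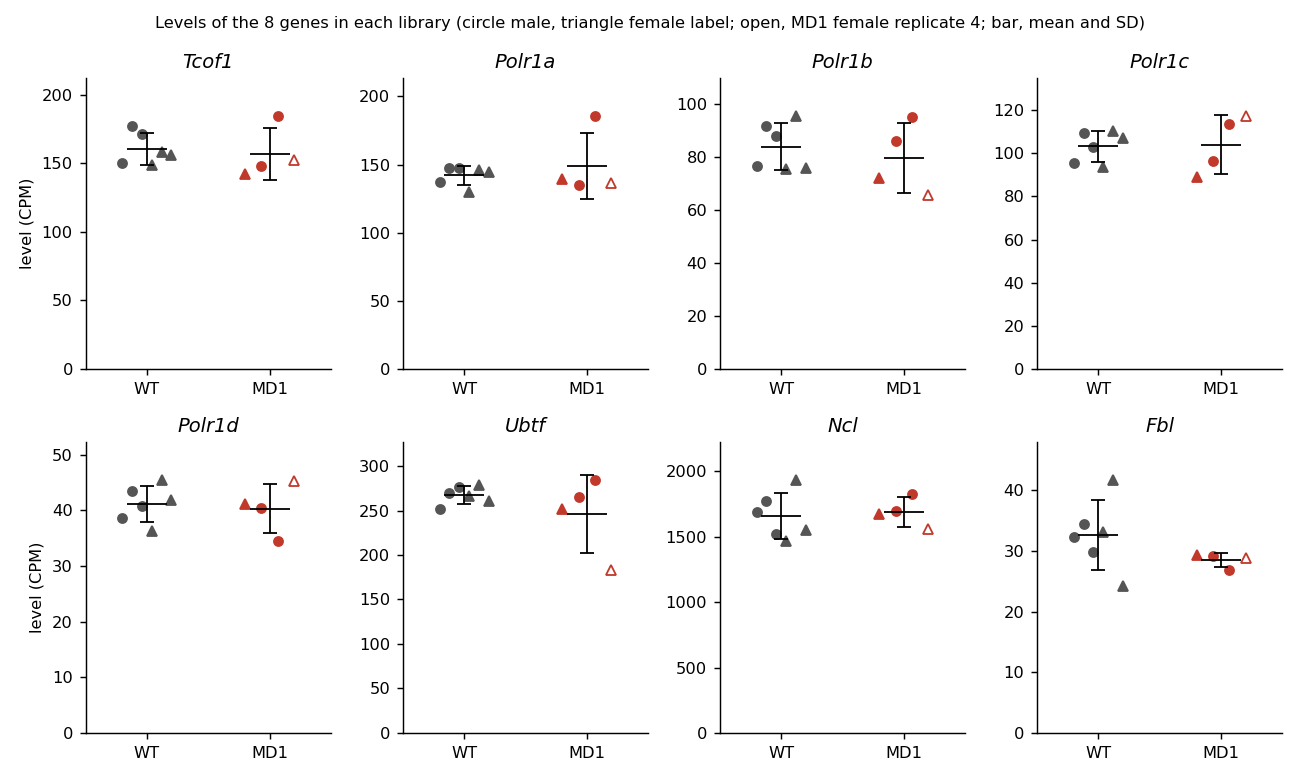
Level of each gene in CPM (vertical axes, each from 0) in the 6 WT and 4 MD1 libraries, with 1 point per library and bars for the mean and SD. The groups overlap in every panel, and the open triangle, MD1 female replicate 4, lies below all other libraries for Ubtf (183 CPM) and Polr1b (65.5 CPM).

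Tcof1 encodes treacle, a nucleolar scaffold that recruits the polymerase, and is the gene most often mutated in Treacher Collins syndrome. It spans chr18:60813755-60848971 on the minus strand of GRCm38, with 26 blocks of exon sequence. In WT it ranged from 149 to 177 CPM with a median of 157 CPM. The MD1 values were 142 CPM in female replicate 1, 148 CPM in male replicate 2, 184 CPM in male replicate 3 and 153 CPM in female replicate 4. MD1 thus held both the lowest and the highest library of the 10, on either side of the WT range. Its log2 fold change, MD1 against WT, was -0.035 with an SE of 0.087 (95% interval -0.22 to 0.15, edgeR adjusted p = 0.891), and -0.026 without MD1 female replicate 4.

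Polr1a and Polr1b encode the large catalytic subunits of RNA polymerase I, which together form its active centre. Polr1a (chr6:71909053-71984935, plus strand, 39 exon blocks) ranged from 129.9 to 147 CPM in WT with a median of 145 CPM, the lowest relative spread of the 4 subunits among the 8 genes (coefficient of variation 4.98%). Among MD1 libraries it measured 139.5 CPM in female replicate 1, 135 CPM in male replicate 2, 185 CPM in male replicate 3 and 136 CPM in female replicate 4. Only male replicate 3, the library with the fewest counts, lay outside the WT range, and the other MD1 libraries lay inside it. Polr1a had a log2 fold change of 0.065 (95% interval -0.14 to 0.27, edgeR adjusted p = 0.801). This was 0.10 when MD1 female replicate 4 was left out and -0.050 when MD1 male replicate 3 was. Of the exon bases of Polr1a, 1.56% are shared with the antisense gene Gm26628 on the opposite strand. The processed pseudogene Gm19078 overlaps its span with 0 shared exon bases.

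Polr1b (chr2:129100995-129126594, plus strand, 17 exon blocks) ranged from 75.6 to 95.4 CPM in WT, with a median of 82.2 CPM. Its MD1 levels were 71.9 CPM in female replicate 1, 86.2 CPM in male replicate 2, 94.97 CPM in male replicate 3 and 65.5 CPM in female replicate 4. Both MD1 libraries labelled female were below the WT range, and both labelled male were inside it. This is not a split by sex, since the library labelled female replicate 1 had Y-linked genes at 290.1 CPM. Between the genotypes Polr1b had a log2 fold change of -0.080 (95% interval -0.33 to 0.17, edgeR adjusted p = 0.798). It was -0.0024 without MD1 female replicate 4 and 0.11 without both libraries labelled female.

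Polr1c and Polr1d encode small subunits that pair with each other in the assembly platform of the enzyme and that RNA polymerase III also uses. Polr1c (chr17:46243920-46248054, minus strand, 9 exon blocks) ranged from 93.7 to 111 CPM in WT, with a median of 105 CPM. In MD1, Polr1c was at 88.9 CPM in female replicate 1, 96.3 CPM in male replicate 2, 114 CPM in male replicate 3 and 117 CPM in female replicate 4. In MD1, 2 libraries were above the WT range and 1 below it, and the group means were nearly equal at 103 ± 7.16 CPM in WT and 104 ± 13.6 CPM in MD1. This gave a log2 fold change of 0.0090 (95% interval -0.19 to 0.21, edgeR adjusted p = 0.9751), and -0.060 without MD1 female replicate 4.

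Polr1d (chr5:147077050-147111597, plus strand, 6 exon blocks) ranged from 36.4 to 45.4 CPM in WT, with a median of 41.4 CPM. Levels in MD1 were 41.1 CPM in female replicate 1, 40.4 CPM in male replicate 2, 34.6 CPM in male replicate 3 and 45.2 CPM in female replicate 4. Male replicate 3 was just below the WT range, while it was among the highest libraries for the other subunits. Polr1d differed by -0.021 on the log2 scale (95% interval -0.23 to 0.19, edgeR adjusted p = 0.946), and by -0.070 without MD1 female replicate 4. Of the 75-base windows in its coding transcripts, the length of 1 read, 13.8% also occur in the processed pseudogene Gm12751. Its count is therefore uncertain, and this share of windows does not measure how many reads were affected. Another processed pseudogene, Rps10-ps4, overlaps its span on the opposite strand with 0 shared exon bases.

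Ubtf encodes UBF, the HMG-box protein that binds along active ribosomal RNA genes and keeps them open. It spans chr11:102304560-102319742 on the minus strand, with 23 exon blocks. In WT it ranged from 252 to 279 CPM with a median of 268 CPM, a coefficient of variation of 3.74% that was the lowest of the 8. MD1 libraries were at 252 CPM in female replicate 1, 265 CPM in male replicate 2, 284 CPM in male replicate 3 and 183 CPM in female replicate 4. The first of these values lay at the lower edge of the WT range, and female replicate 4 was clearly below every other library. Ubtf had a log2 fold change of -0.12 (95% interval -0.35 to 0.11, edgeR adjusted p = 0.663). Without MD1 female replicate 4 it was -0.0014, so nearly all of the difference in the fit came with that library.

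That library also differed in other ways, which are given here as values. Its summed level of 12 hypoxia response genes, such as Slc2a1 for glucose uptake and Vegfa for vessel growth, was 10987 CPM, against 1086 to 2453 CPM in WT and 1404 to 2541 CPM in the other MD1 libraries. The globins and other erythroid markers summed to 19693 CPM there, against 2910 to 4176 CPM in WT and at most 4138 CPM in the other MD1 libraries. Of the 11 hypoxia genes tested, 11 were higher in MD1 with a median log2 fold change of 1.88, which was 0.44 without this library, and 0 passed the adjusted threshold (11 had an unadjusted p under 0.05). The part of these in the low Ubtf and Polr1b values was not tested. Markers of facial mesenchyme and neural crest summed to 1033 CPM in it, against 1481 to 2091 CPM in WT. In the other MD1 libraries they summed to between 1437 and 1758 CPM. Of these 11 markers, 10 were lower in MD1, with a median log2 fold change of -0.12 and 0 past the adjusted threshold. Without this library 6 of the 11 were higher, with a median of 0.0087. All 11 were detected, while Sox10, a marker of early crest and glia, was at 0 in this library and low in the others (1.60 ± 0.55 CPM in WT).

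Markers of other tissues were higher in some MD1 libraries as well. All 8 surface ectoderm and nasal placode markers were higher in MD1 (0 past the adjusted threshold, 2 at an unadjusted edgeR p under 0.05). Their median log2 fold change was 0.29, and 0.099 without MD1 female replicate 4, when all 8 were still higher. They summed to 361 to 407 CPM in 3 MD1 libraries and 503 CPM in female replicate 4, against 326 to 398 CPM in WT. Endothelial markers summed to 602 CPM in that library, 415 CPM in MD1 replicate 1, 418 CPM in male replicate 3 and 330.0 CPM in male replicate 2, against 316 to 396 CPM in WT. In female replicate 4, forebrain and eye markers summed to 542 CPM, against 265 to 458 CPM in WT. Macrophage markers lay between 25.8 and 33.5 CPM in MD1 and between 28.7 and 38.2 CPM in WT. Markers of yolk sac endoderm and liver, led by Afp, summed to 84.2 CPM in MD1 female replicate 4 and to 328 CPM in the MD1 replicate 1 library, labelled female, against 1.14 to 27.3 CPM in WT and at most 1.45 CPM in the MD1 males. These are also the libraries in which Polr1b lay below the WT range. The part of any of these tissues in the levels of the 8 genes was not tested.

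Ncl encodes nucleolin, an abundant RNA-binding protein of the nucleolus that acts in the first steps of pre-ribosomal RNA processing. It spans chr1:86344719-86359400 on the minus strand, with 12 exon blocks. In WT it ranged from 1467 to 1932 CPM with a median of 1619 CPM. Nucleolin RNA in MD1 was at 1677 CPM in female replicate 1, 1699 CPM in male replicate 2, 1828 CPM in male replicate 3 and 1556 CPM in female replicate 4. Every MD1 library lay inside the WT range. The difference on the log2 scale was 0.029 (95% interval -0.16 to 0.22, edgeR adjusted p = 0.914), and 0.069 without MD1 female replicate 4. Small RNA genes lie within its span, namely Snora75, Gm24148, Snord82 and mmu-mir-3535, and 1.31% of its exon bases are shared with Snora75.

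Fbl encodes fibrillarin, the methyltransferase of box C/D small nucleolar ribonucleoproteins, which methylates ribosomal RNA. It spans chr7:28169710-28179269 on the plus strand, with 8 exon blocks. In WT it ranged from 24.2 to 41.6 CPM with a median of 32.7 CPM, the widest WT spread of the 8 (coefficient of variation 17.5%). For MD1 the values were 29.3 CPM in female replicate 1, 29.1 CPM in male replicate 2, 26.8 CPM in male replicate 3 and 28.8 CPM in female replicate 4. All MD1 libraries lay within the WT range and below the WT median. Its log2 fold change of -0.19 (95% interval -0.47 to 0.09, edgeR adjusted p = 0.595) was the farthest from 0 of the 8, and it was -0.18 without MD1 female replicate 4. Single WT libraries moved it more, to -0.11 without WT female replicate 5, the highest, and to -0.26 without WT female replicate 6, the lowest (edgeR unadjusted p = 0.0361, adjusted p = 0.663). Its count rests on as few as 111 reads in MD1 male replicate 3. Moreover, 63.4% of the 75-base windows in its coding transcripts occur in transcripts of other genes, 727 of 756 of them in annotated transcripts of Tulp4, so its level is uncertain.

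**Figure D2:**
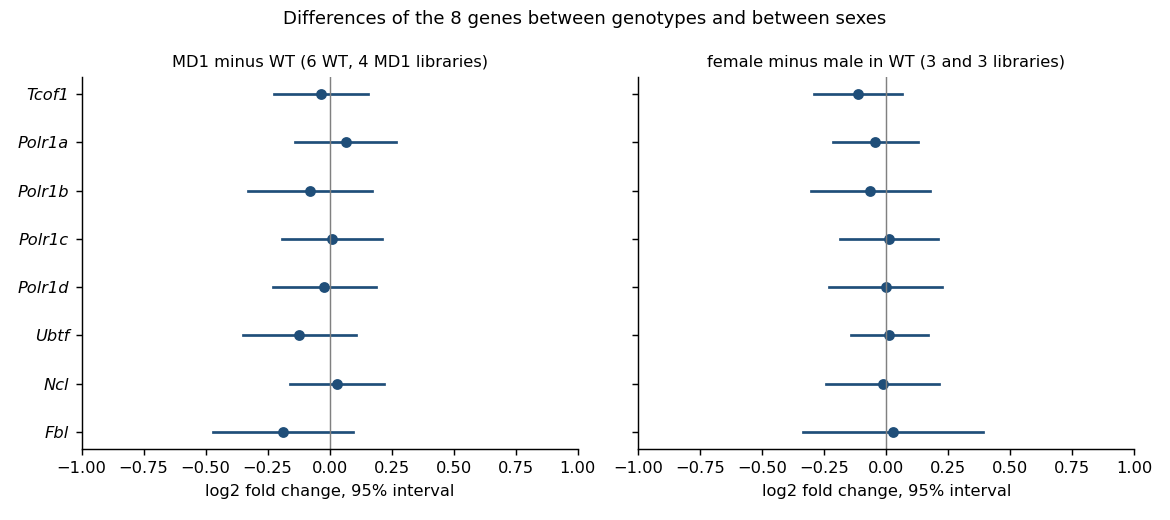
Log2 fold change of each gene (points) with its 95% interval (lines) from the edgeR fits, for MD1 minus WT on the left and for female minus male in WT on the right. All 16 intervals include 0, and the widest is that of Fbl in the comparison of sexes (-0.34 to 0.39).

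No difference between the sexes was detected either. Within WT, 0 of 8 genes passed an adjusted p of 0.05 between the 3 female and 3 male libraries, where edgeR called 0.0449% of 15575 autosomal genes, and 0 of 8 had an unadjusted p under 0.05, against 3% of all genes. DESeq2, limma-voom and limma on log2 RPKM also called 0 of 8. The log2 fold changes, female minus male, ran from -0.11 for Tcof1 to 0.026 for Fbl, with 5 of 8 below 0, against 51% of all genes. Tcof1 averaged 154 ± 4.85 CPM in females and 166 ± 14.3 CPM in males (n = 3 each, 95% interval of the log2 fold change -0.29 to 0.06). The libraries of the sexes overlapped in all 8 genes, and those of 8.24% of all genes did not. MD1 libraries were not split by sex, because of the mixed signals described above.

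On a scale per length, the order of the WT means in log2 RPKM was Ncl (7.19), Polr1c (5.35), Ubtf (5.20), Tcof1 (4.78), Polr1b (3.70), Polr1d (3.60), Polr1a (3.43) and Fbl (2.79). Ncl stood well above the others, higher than 99.2% of all autosomal genes tested. Polr1c and Ubtf were at the 94.2 and 93.1 percentiles and Tcof1 at the 89.1 percentile, while the other subunits lay between 68.4 and 73.4. The WT ranges of Polr1c and Ubtf overlapped, as did those of Polr1b and Polr1d and those of Polr1d and Polr1a, and the other neighbours in the order were separate. Within single libraries the order held more often than these ranges show, since Polr1c was above Ubtf in 10 of 10 libraries and Polr1d above Polr1a in 9 of 10. On this scale the small subunit gene Polr1c was above the large subunit gene Polr1a, at 5.35 against 3.43 log2 RPKM. In CPM the WT means were the other way, at 103 for Polr1c and 142 for Polr1a. Merged over all annotated transcripts, the exons cover 11871 bases for Polr1a, 10188 for Ncl, 4209 for Fbl and 2278 for Polr1c. The order above therefore depends on the length that each count was divided by. The low level of Fbl also carries the uncertainty of its shared sequence.

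Summed over the 8 genes, the level was 2487 ± 206 CPM in WT and 2495 ± 194 CPM in MD1. Ncl alone made up between 64.0 and 68.8% of that sum in each of the 10 libraries. Without Ncl the sum was 830.5 ± 43.3 CPM in WT and 805 ± 84.8 CPM in MD1, so here too the MD1 mean lay within 1 SD of the WT mean.

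**Figure D3:**
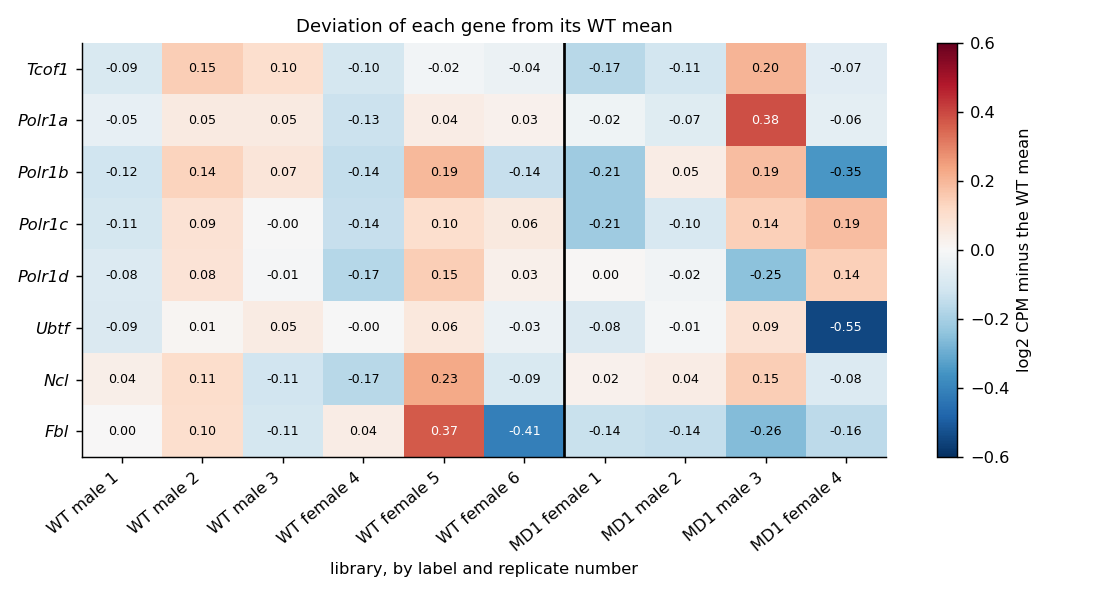
Log2 CPM of each gene (rows) minus its WT mean in each library (columns), with WT left of the black line and MD1 right of it. The farthest deviations are -0.55 for Ubtf in MD1 female replicate 4, -0.41 for Fbl in WT female replicate 6 and 0.38 for Polr1a in MD1 male replicate 3.

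The genes varied little between libraries. The SD of log2 CPM over the 10 libraries ran from 0.124 for Tcof1 to 0.214 for Fbl, where the median of all genes tested was 0.249. All 8 thus fell between the 12.98 and 40.8 percentiles of that SD. Their WT levels lay between the 56.7 and 99.2 percentiles, and their spread was not compared with that of genes of like level. WT female replicate 5 was the highest library for 4 genes (Polr1b, Polr1d, Ncl and Fbl), and MD1 male replicate 3 was the highest for 3 (Tcof1, Polr1a and Ubtf) and the lowest for Polr1d. In the map of deviations, WT male replicate 2 was above the WT mean for 8 of 8 genes and WT female replicate 4 for 1 of 8, so the WT libraries also moved apart from each other as sets.

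**Figure D4:**
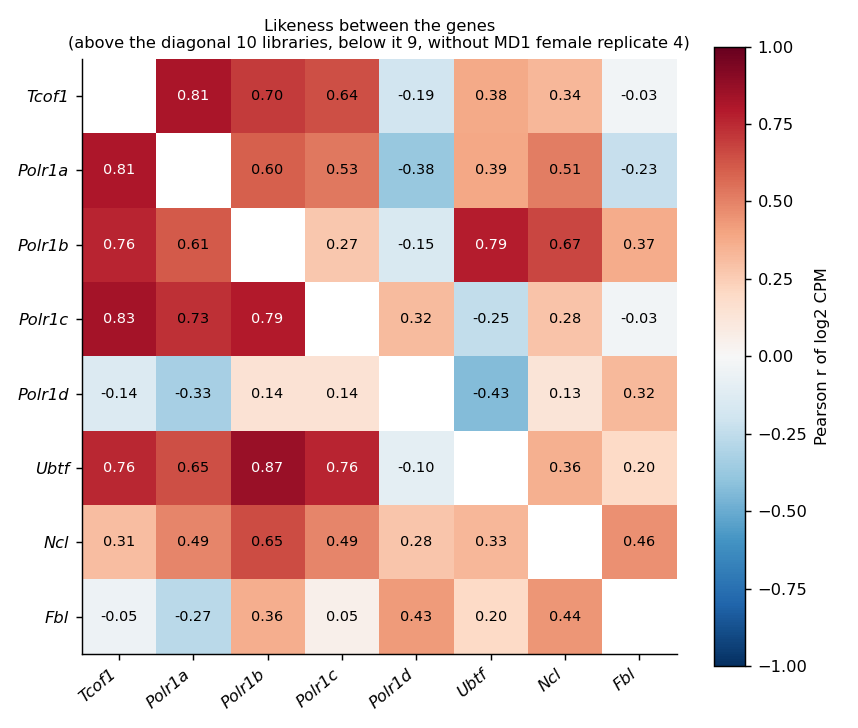
Pearson r of log2 CPM between each pair of genes, over 10 libraries above the diagonal and over 9 libraries, without MD1 female replicate 4, below it. Tcof1, Polr1a, Polr1b, Polr1c and Ubtf form a block of r between 0.61 and 0.87 below the diagonal, and Polr1d stands outside it.

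Across libraries, several of the genes rose and fell together. Of the 28 pairs, 20 had a positive Pearson r over the 10 libraries, with a median of 0.33, and 23 were positive without MD1 female replicate 4, with a median of 0.43. These are descriptions over points that share a library, its depth and its normalization, and pairs of other genes were not taken for comparison. The closest pair was Tcof1 with Polr1a (r = 0.81 over 10 libraries and 0.81 over 9), treacle and the largest subunit. Polr1b and Ubtf followed (0.79 over 10, 0.87 over 9). The pair of Polr1c and Ubtf turned from -0.25 over 10 libraries to 0.76 over 9, since in MD1 female replicate 4 Polr1c was at its highest and Ubtf at its lowest. Over all 10 libraries Polr1d was the least like the rest. Its r with Polr1a was 0.88 over the 6 WT libraries but -0.38 over all 10, and with Polr1c it was 0.97 in WT and 0.32 over all 10. Within WT its lowest r was 0.29, with Fbl. MD1 male replicate 3 was the lowest library for Polr1d and the highest for Tcof1, Polr1a and Ubtf.

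Among 10259 autosomal genes with a mean of at least 10 CPM, the 3 genes most like each of the 8 over the 10 libraries were as follows. For Polr1b they were Rrs1, a ribosome assembly factor (r = 0.96), the predicted gene Gm49383 (0.96) and Polr3g, a subunit of RNA polymerase III (0.96). For Ncl they were Rsl1d1, a nucleolar protein (0.96), Chchd1 (0.92) and Rpl36al, a ribosomal protein (0.92). For Tcof1 they were Ppp2r1a, Pwp2, a component of the small subunit processome, and Kars, a tRNA synthetase (0.92 to 0.93). Polr1a was most like Alg3, Akap1 and Mpdu1 (0.94 to 0.97), of which Alg3 and Mpdu1 act in protein glycosylation. Polr1c was most like Gga2, Hs6st1 and the transcription factor gene Mycn (0.93 to 0.97), and Polr1d was most like Clu, Sod1 and Abt1 (0.93 to 0.98). Ubtf was most like Vash1, Opa3 and Eif4ebp2 (each 0.99), values that rest in part on MD1 female replicate 4 and fell to between 0.89 and 0.93 without it. Fbl was most like H2afz, Cops6 and Rad23b (0.86 to 0.87). With so many genes searched over 10 libraries, values of this size are the upper end of a long list.

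The promoters of 4 of the genes are shown because these genes have a single listed start and their levels had positive r over 9 libraries, of 0.61, 0.73 and 0.79 between Polr1a, Polr1b and Polr1c, while Ncl had r of 0.49, 0.65 and 0.49 with them in that order. RefSeq's table for GRCm38.p6 held 6 of the 8 genes. Polr1d also had a single listed start, but its r with Polr1a was -0.33 over 9 libraries, so it is not shown. Over the 6 WT libraries that r was 0.88. Each stretch runs from 250 bases before the start to 20 after it, and the capitals mark any match to 1 of 5 motifs, searched on both strands. The GC box was GGGCGG. The box named for its letters was CCAAT. The core site of ETS factors was CCGGAA. The E-box was CACGTG. The last was TCTCGCGA, a palindrome found near the starts of some genes. No marked matches overlap in these 4 stretches.
Polr1a, chr6:71908803-71909072, plus strand: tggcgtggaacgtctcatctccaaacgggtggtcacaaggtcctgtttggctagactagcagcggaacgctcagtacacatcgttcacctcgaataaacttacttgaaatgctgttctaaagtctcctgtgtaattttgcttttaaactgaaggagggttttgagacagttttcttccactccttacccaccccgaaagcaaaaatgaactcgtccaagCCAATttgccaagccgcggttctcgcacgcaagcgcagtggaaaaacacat
Polr1b, chr2:129100746-129101015, plus strand: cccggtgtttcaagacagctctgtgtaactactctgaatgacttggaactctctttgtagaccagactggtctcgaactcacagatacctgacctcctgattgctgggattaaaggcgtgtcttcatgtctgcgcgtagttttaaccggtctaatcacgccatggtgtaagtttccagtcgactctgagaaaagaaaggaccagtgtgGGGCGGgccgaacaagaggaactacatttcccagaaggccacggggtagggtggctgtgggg
Polr1c, chr17:46248026-46248295, minus strand: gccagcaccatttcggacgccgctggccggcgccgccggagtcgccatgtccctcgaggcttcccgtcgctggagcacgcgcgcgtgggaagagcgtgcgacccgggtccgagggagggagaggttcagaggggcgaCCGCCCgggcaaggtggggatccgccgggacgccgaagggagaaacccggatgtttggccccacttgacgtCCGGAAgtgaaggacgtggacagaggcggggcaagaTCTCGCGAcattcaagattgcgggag
Ncl, chr1:86359436-86359705, minus strand: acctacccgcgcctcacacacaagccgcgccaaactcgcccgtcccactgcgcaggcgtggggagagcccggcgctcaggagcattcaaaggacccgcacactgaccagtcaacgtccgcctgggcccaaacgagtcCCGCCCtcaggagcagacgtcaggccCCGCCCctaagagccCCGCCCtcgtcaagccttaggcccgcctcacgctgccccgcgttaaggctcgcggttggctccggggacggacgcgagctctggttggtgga

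The stretches differed in base composition and in what they held. The Ncl promoter was 69.3% GC and held 3 GC boxes, and that of Polr1c was 68.9% GC and held 1 GC box, 1 ETS core and 1 TCTCGCGA motif at the start itself. The Polr1b promoter (51.5% GC) held 1 GC box, and that of Polr1a (47.4% GC) held 1 CCAAT box only. That of Polr1d (53.3% GC), not shown, held no match to any of the motifs. Among 32851 RefSeq promoters of this length, 34.1% held a GC box, 35.4% a CCAAT box, 13.7% an ETS core, 0.944% the TCTCGCGA motif and 6.57% an E-box. The E-box is the binding sequence of MYC proteins, known activators of ribosome biogenesis genes. These letters were in none of the 4 stretches. A match is a description of the sequence, and no binding was measured here.

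The wider pathway also held no called difference between the genotypes. In 11 lists of ribosome biogenesis and related genes, 124 of 128 listed genes were tested (the other 4, Dkc1, Utp14a, Gnl3l and Las1l, are X-linked and were not in the autosomal fit). Of these, 55 were higher and 69 lower in MD1, 0 passed the adjusted threshold with edgeR, and 0 did with DESeq2, limma-voom or limma on log2 RPKM. At an unadjusted p under 0.05 there were 6, which is 4.84% of the genes tested, against 9.79% of all genes. Their median log2 fold change was -0.015. Without MD1 female replicate 4, 62 of 124 were higher with a median of -0.0013, and 0 passed, and most of the single values below moved by over 1.5 times without it.

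**Figure D5:**
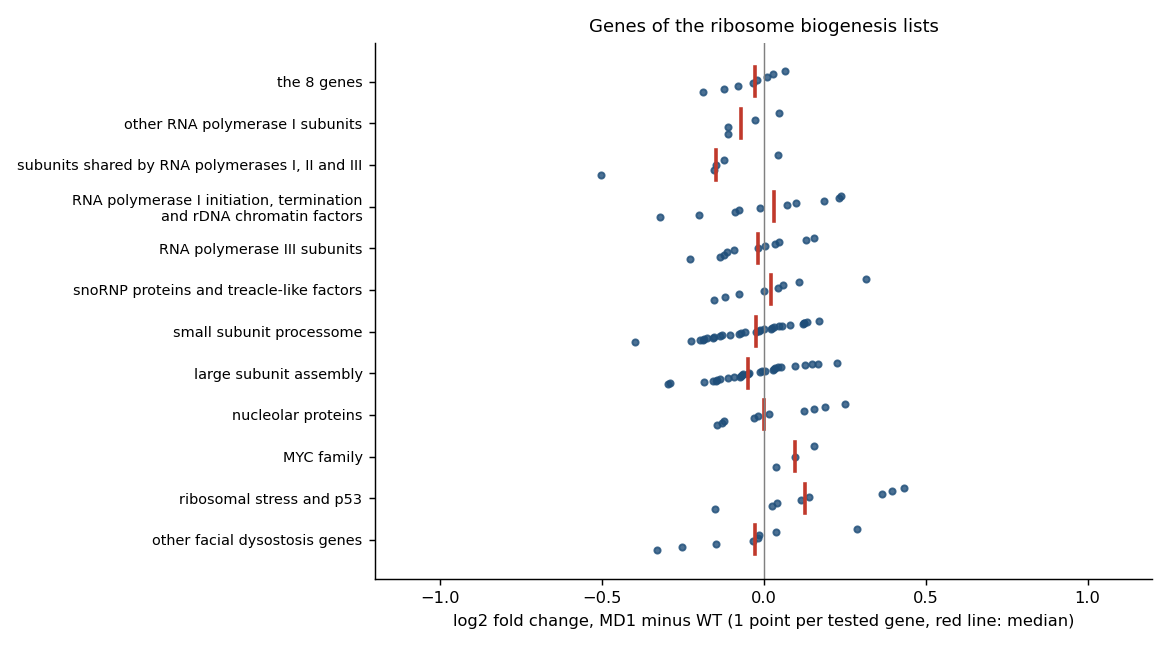
Log2 fold change, MD1 minus WT, of every tested gene (points, horizontal axis) in the 8 genes and in each of the 11 pathway lists, with the median of each list as a red line. The points centre near 0, from a median of -0.15 for the subunits shared by the 3 polymerases to 0.13 for ribosomal stress and p53.

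Of the other RNA polymerase I subunits, 1 of 4 was higher and 3 were lower, with values of -0.11 for Polr1e, 0.046 for Twistnb, -0.028 for Cd3eap and -0.11 for Znrd1. Without MD1 female replicate 4, 2 of 4 were higher, with Polr1e at 0.050 and Twistnb at 0.15. Polr1e had 34.7 ± 3.36 CPM in WT and 32.6 ± 11.1 CPM in MD1, and it was at 19.998 CPM in MD1 female replicate 4. Of the subunits shared by RNA polymerases I, II and III, 1 of 5 was higher and 4 were lower (median -0.15), with Polr2l at -0.50 (SE 0.30) from a low level of 11.0 ± 1.07 CPM in WT, and at -0.22 without that library. RNA polymerase III subunits were split, 5 higher and 6 lower of 11, with Polr3e at -0.23 and Polr3a at 0.15, which were -0.082 and -0.0079 without it. None of these genes had an unadjusted p under 0.05.

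Factors that start or end transcription by RNA polymerase I, or shape its chromatin, were 5 higher and 5 lower. The subunits of the promoter selectivity factor SL1 lay on both sides, at 0.24 for Taf1a, 0.18 for Taf1d, -0.20 for Taf1b and -0.32 for Taf1c (SE 0.13, unadjusted p = 0.0334, edgeR adjusted p = 0.498). Without MD1 female replicate 4, Taf1a was at 0.12, Taf1b at -0.13 and Taf1c at -0.41. Of the proteins of small nucleolar ribonucleoproteins and treacle-like factors, 4 of 8 were higher. Naf1, an assembly factor of the H/ACA class, had the largest value, 0.32 (edgeR adjusted p = 0.498), while Nolc1, a relative of treacle, was at -0.12 and Nhp2 at -0.15. These 3 were at 0.18, -0.049 and -0.089 without that library.

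In the small subunit processome, the large particle that cuts the pre-ribosomal RNA, 11 of 29 were higher and 18 lower, with a median of -0.025. Both turned without MD1 female replicate 4, when 17 of 29 were higher with a median of 0.022. Tbl3 had the largest value in that list, -0.40 (SE 0.16, edgeR adjusted p = 0.498), at 92.8 ± 10.9 CPM in WT and 71.0 ± 19.5 CPM in MD1. It was at 44.8 CPM in MD1 female replicate 4, and its value was -0.23 without that library. Utp20 and Rcl1 were at -0.18 and -0.19, and Bms1 at 0.12, which were -0.086, -0.11 and 0.078 without it. In the assembly of the large subunit, 11 of 28 were higher and 17 lower (median -0.048), with Mdn1, a giant ATPase, at -0.29, Nop16 at -0.14, Gtpbp4 at 0.13 and Gnl3 at 0.17. Mdn1 was at -0.11 and Gnl3 at 0.067 without MD1 female replicate 4. The other nucleolar proteins were 5 higher and 5 lower (median -0.00041), led by Rrp15 (0.25) and Ddx10 (0.19), with Npm1, the abundant nucleophosmin, at 715 ± 105 CPM in WT and 796 ± 57.3 CPM in MD1 (0.15). Without MD1 female replicate 4, 6 of these 10 were higher, with a median of 0.029.

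Genes that act above or after this machinery were also not past the threshold. The MYC family, which drives it, was 3 of 3 higher, with Myc at 0.097, Mycn at 0.037 and Max at 0.16, and 1 of 3 higher without MD1 female replicate 4, when they were at -0.083, -0.19 and 0.066. Of 8 genes of ribosomal stress and p53, through which loss of Tcof1 is known to kill crest cells, 7 were higher and 1 lower, with a median of 0.13, and 5 were higher with a median of 0.038 without MD1 female replicate 4. Mdm2, a p53 target and its inhibitor, was at 65.6 ± 5.29 CPM in WT and 86.1 ± 27.2 CPM in MD1, a log2 fold change of 0.40 (edgeR adjusted p = 0.496) that was 0.15 without that library. Trp53 was at -0.15, and the ribosomal protein genes Rpl5 and Rpl11, whose products bind MDM2, at 0.14 and 0.36, and Rpl11 was at 0.033 without MD1 female replicate 4. Trp53 was then at -0.097. Of 8 genes of other facial dysostoses, 2 were higher and 6 lower, with the splicing genes Eftud2 at -0.15, Sf3b4 at -0.33 and Snrpb at -0.25, and Dhodh, for pyrimidine synthesis, at 0.29 (SE 0.16). Without MD1 female replicate 4, 4 of the 8 were higher, and these values were -0.043, -0.15, -0.12 and 0.086.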

How the data were processed

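RNA was sequenced from 6 WT and 4 MD1 samples of FNP, grouped by their labels. Per the study's methods and the submitters' processing notes, the single-end 75-base reads came from TruSeq libraries. The methods name a stranded kit and another kit, without saying which was used for FNP. Adapters were removed by Trim Galore (0.4.4), HISAT2 (2.0.5) mapped the reads to GRCm38.p6, and SeqMonk counted them. The strand setting and the mapping-quality filter of the counting are not given in the sources used here. What the authors deposited were raw counts for each gene and, apart from these, log2 RPKM values. Columns of genotype averages were not used. Of 35591 rows, 49 repeated a gene identifier and the row with more reads was kept.

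Counts were tested with edgeR 4.0.16 (quasi-likelihood, TMM, filterByExpr, autosomes, Benjamini-Hochberg at 0.05, R 4.3.3), on all 10 libraries without covariates and on the 6 WT libraries for sex. SEs come from the F statistic and intervals are 95%. Alternatives were DESeq2 1.42.0, limma 3.58.1 (voom, and log2 RPKM), other scalings and filters, a covariate of the sex labels, a replicate block and libraries left out. Likeness used log2 CPM with a prior count of 2. The scripts were tested on simulated counts, and no pair of libraries agreed within sampling noise. Exons and shared windows are from GENCODE M21. Depth and the number of libraries limit precision.

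The members, the lists and the tests were chosen with earlier results of these data known. The text names all 8 genes, Smchd1, the genes of each list with the smallest p, the 3 genes most like each member and genes overlapping a member. Other listed genes were named after their values were seen.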

Additional observations from a re-analysis of the deposited data

Results flagged for a closer look

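Of 18 groups of 4 or 6 libraries checked by Dixon's rule, 1 held a library far from the others. Polr1a in MD1 male replicate 3 was at 185 CPM, the highest of the 4 MD1 libraries, while the other 3 lay between 135 and 139.5 CPM. This library has the fewest counts of all (4195119), and Polr1a rested on 767 reads in it. Chance alone marks about 1 in 20 groups in this way.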

How the results depend on the processing

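The number of the 8 genes past the threshold was 0 under every alternative run, for genotype and for sex, with the smallest adjusted p of a member at 0.381. For genotype, 0 pathway genes passed with either other scaling, with no filter and with libraries left out. Since no difference was called, signs near 0 turned easily, in 22 of 160 values for genotype and in 16 of 104 for sex. For genotype the values that turned were -0.034 for Polr1c and -0.0067 for Ncl with total counts, and -0.0031 for Polr1c with no filter. With limma-voom they were -0.015 for Polr1c and 0.0058 for Polr1d, and with limma on log2 RPKM -0.020 for Polr1a, -0.073 for Polr1c and -0.044 for Ncl. Without both MD1 libraries labelled female they were 0.047 for Tcof1, 0.11 for Polr1b and 0.040 for Ubtf. For sex they were -0.0018 for Polr1c and -0.015 for Fbl with limma-voom, and -0.0082 for Fbl with limma on log2 RPKM. The cause was not tested.

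Leaving out each library in turn, the log2 fold changes for genotype ran from -0.11 to 0.0099 for Tcof1, from -0.050 to 0.11 for Polr1a, from -0.060 to 0.079 for Polr1c, from -0.070 to 0.043 for Polr1d, from -0.0077 to 0.078 for Ncl, from -0.17 to -0.0024 for Polr1b, from -0.19 to -0.0014 for Ubtf and from -0.26 to -0.11 for Fbl. For sex they ran from -0.18 to -0.061 for Tcof1, from -0.18 to -0.0046 for Polr1b, from -0.077 to 0.011 for Polr1a, from -0.039 to 0.083 for Polr1c, from -0.077 to 0.085 for Polr1d, from -0.021 to 0.041 for Ubtf, from -0.15 to 0.065 for Ncl and from -0.17 to 0.21 for Fbl. Over all genes, edgeR called 12 for genotype, against 51 with DESeq2, 4 with limma on log2 RPKM, 8 with total counts, 6 without both MD1 libraries labelled female and 4 to 13 with 1 library left out. For sex it called 7, against 32 with DESeq2, 36 with no filter, 26 with sex chromosomes kept and 0 to 4 with 1 library left out.

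The groups share replicate numbers 1 to 4, and no source says that these pair the libraries. The correlation of same-numbered deviations was 0.0121, 0.00227, 0.0776 and -0.0402, where other combinations ran from -0.252 to 0.266. With so few libraries this check cannot exclude a pairing. With the replicate number as a block, 0 of 15452 genes and 0 of the 8 were called, and Polr1d was at 0.018.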
